A study of Mus musculus with 6 samples.

Results

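The receptors for corticosteroids and the proteins that hold and retain them were described as 10 genes, looked up by symbol in the deposited transcript tables of the mouse prefrontal cortex (PFC). They are the receptors Nr3c1 and Nr3c2, the chaperones Hsp90aa1 and Hsp90ab1, the cochaperones Fkbp4, Fkbp5 and Ptges3, the steroid enzyme Hsd11b1 and the coactivators Ncoa1 and Ncoa2. Of 12559 genes with mRNA transcripts, 9 were members, since Fkbp5 had no mRNA row and was described by transcripts that overlap its RefSeq gene, and the 9 had 33 of the 32870 mRNA transcripts. The libraries came from 3 RSD and 3 control mice, all male C57BL/6 mice, an inbred strain, 6 to 8 weeks old. The RSD (repeated social defeat) mice had been exposed at home to an attacking male CD-1 mouse on 6 consecutive nights, for 2 h each, and had been chosen for sequencing because they showed anxiety-like behavior in an elevated plus maze. The control mice had been left undisturbed in another cage and room, so RSD, cage and room cannot be told apart. The paper also gives maze results for control mice, and eligible mice were killed immediately after the maze. Whether the sequenced control mice were among those tested is not stated. The values are FPKM (fragments scaled by transcript length and by the mapped fragments of the library, a level per length), given in the order of mouse 1, 2 and 3 of each group, which are not pairs.

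Corticosterone, the main glucocorticoid of mice, acts in the brain through both receptors. The mineralocorticoid receptor binds it with high affinity and is largely occupied at rest, while the glucocorticoid receptor binds it with lower affinity and is filled under stress. Before hormone arrives, a receptor is held by an Hsp90 dimer with p23 and an immunophilin. FKBP51 keeps the receptor of low affinity and in the cytoplasm, its relative FKBP52 couples it to dynein and the nucleus, and the receptor in turn switches on the Fkbp5 gene, which closes a short feedback loop.

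None of the 8 members that passed the filter on low values (0.5 FPKM or more in 3 or more of the 6 mice) differed between RSD and control mice at an adjusted p under 0.05 (limma on log2(FPKM + 0.1), Benjamini-Hochberg over 12277 genes), and 0.0733% of all genes tested did. At an unadjusted p of at most 0.05, 1 of the 8 was past the threshold, Ncoa2, which was higher in RSD mice. The background was 6.21% of the genes tested for a higher value in RSD mice, 2.74% for a lower one and 8.94% for either. Ncoa2 was also the 1 member with a log2 fold change of at least 1 as well, a pair of thresholds met upwards by 1.85% of genes, and the 1 member whose RSD mice all lay above the control mice, which 9.39% of genes did. The median log2 fold change of the 8 was -0.04, against 0.03 over all genes tested. In bulk tissue, fewer cells of a type and less RNA per cell cannot be told apart.

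Transcripts of 5 member loci (Nr3c1, Fkbp4, Ptges3, Ncoa1 and Ncoa2) also stood in the lncRNA table, 13 in all. Each member is therefore given as the sum of its mRNA transcripts and, where this differs, as the sum over every transcript of its locus. Among the locus sums 9 members passed the filter. Of these, 0 reached an adjusted p under 0.05 (limma, 0.0648% of 12354 loci did). In 1, Ncoa2, all RSD mice lay above the control mice and the unadjusted p was at most 0.05 (limma). All RSD mice lay above in 9.76% of loci, and 6.92% were higher in RSD mice past that p. The mean locus sum over the 6 mice ran from 239 FPKM for Hsp90ab1 through 135 FPKM for Hsp90aa1 and 28.3 FPKM for Ptges3 to 20.6 and 20.1 FPKM for Ncoa2 and Ncoa1, 15.6 FPKM for Fkbp4, 11.6 FPKM for Nr3c1, 8.32 FPKM for Nr3c2 and 4.45 FPKM for Hsd11b1. Hsp90ab1 lay above Hsp90aa1, Hsp90aa1 above Ptges3, and Hsd11b1 below Nr3c2 in all 6 mice, with no overlap of their ranges. The ranges of the other neighbours in this order overlapped.

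**Figure D1:**
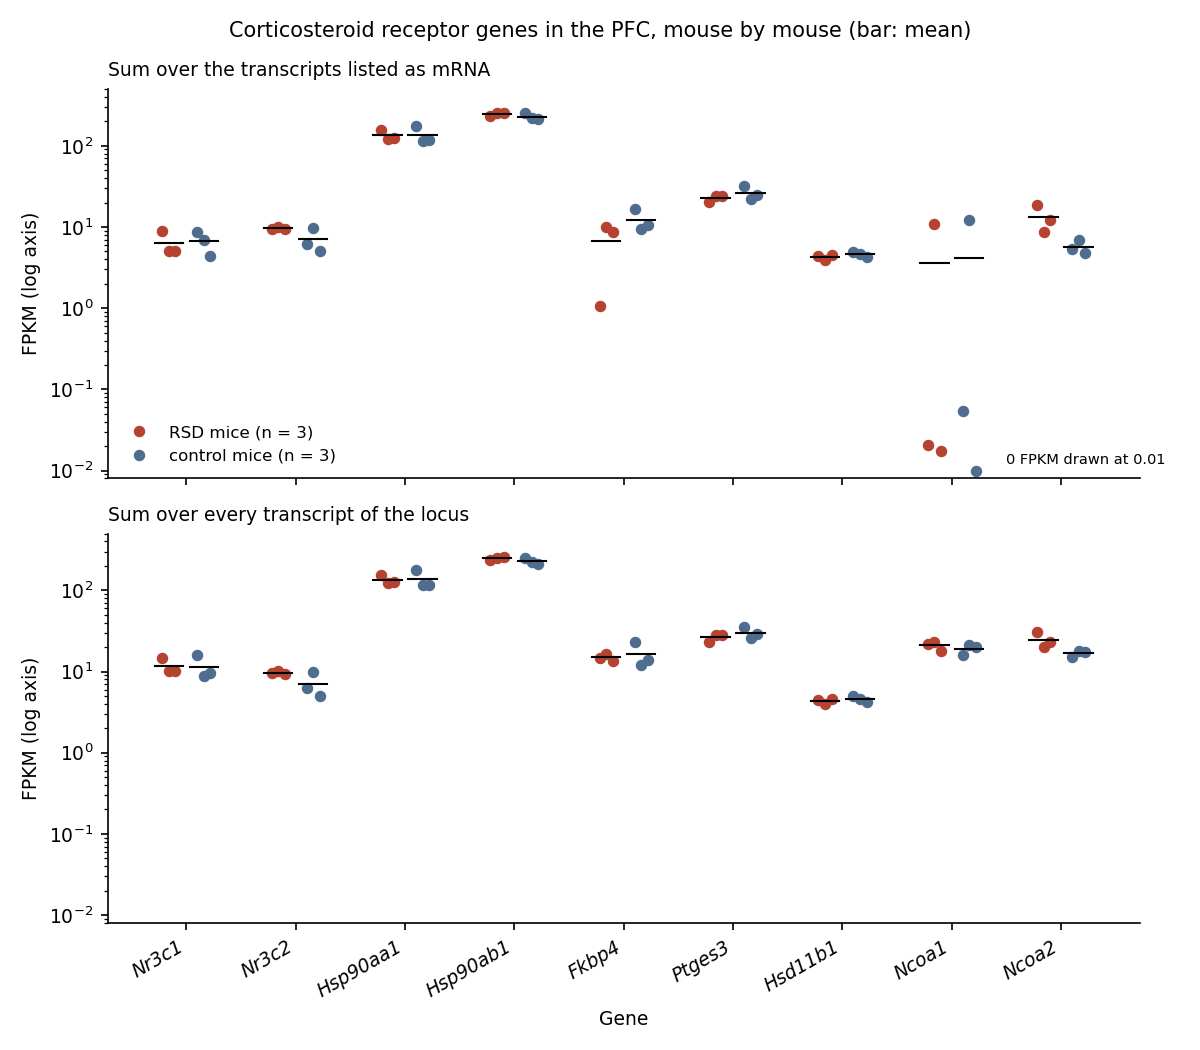
FPKM of the members in each mouse on a log axis, with RSD mice in red left of control mice in blue and the group mean as a bar. The upper panel sums the transcripts listed as mRNA and the lower panel every transcript of the locus. Fkbp4 of RSD mouse 1 (1.06 FPKM) and Ncoa1 of 4 mice are low in the upper panel only, and Ncoa2 is higher in all RSD mice in both.

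The 6 mice did not fall apart by group. Across all genes control mouse 1 correlated with the RSD mice at 0.883 to 0.891 and with the other control mice at 0.835 and 0.859, and it held the highest value of the 6 mice for 33.6% of genes tested and for 4 of the 8 members. Depth relative to this mouse was 0.906 to 0.967 in RSD mice and 0.857 to 0.878 in control mice 2 and 3, read from the steps between low values. The tissue label fitted the summed markers, which were 478 to 673 FPKM in RSD mice and 121 to 559 FPKM in control mice for 8 excitatory neuron genes, of which Slc17a7 had 311 to 331 FPKM in 4 mice but 0 in control mouse 2 and 0.0055 FPKM in control mouse 3. Without it the sums were 167 to 346 FPKM and 121 to 248 FPKM in RSD and control mice. The 6 oligodendrocyte markers summed to 231 to 281 FPKM in RSD mice and 133 to 218 FPKM in control mice, and the 6 mural and meningeal markers to 20.4 to 23.3 FPKM in RSD mice and 25.1 to 32.5 FPKM in control mice, in neither case with an overlap. Of 7 striatal genes, Drd2 and Adora2a had no mRNA row. The other 5 summed to 35.2 to 38.7 FPKM in RSD mice and 23.9 to 42.9 FPKM in control mice. Whether this came from neighbouring tissue was not tested.

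Nr3c1 on chromosome 18 encodes the glucocorticoid receptor. Its 4 mRNA transcripts summed to 9.03, 5.01 and 4.998 FPKM in RSD mice, against 8.77, 6.96 and 4.34 FPKM in control mice. The high mouse of each group had about the same level, and the groups overlapped throughout. The log2 fold change was -0.08 ± 0.35 (SE, 95% interval -0.94 to 0.79, adjusted p = 0.95, limma), and the interval leaves room for a change in either direction. An assembled transcript of the locus listed as lncRNA, MERGE.21071.2, held much of the signal, at 5.83, 5.15 and 5.20 FPKM in RSD mice and 7.03, 1.88 and 5.19 FPKM in control mice. With it the locus sums were 14.9, 10.2 and 10.2 FPKM in RSD mice, against 15.8, 8.84 and 9.53 FPKM in control mice, a log2 difference of 0.07 ± 0.27 (SE, adjusted p = 0.94, limma).

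The differences of the receptor isoforms had different signs, none past a threshold. ENSMUST00000115571 had 3.19, 1.16 and 1.59 FPKM in RSD mice and 3.47, 4.64 and 2.45 FPKM in control mice (log2 fold change -0.87, unadjusted p = 0.09, limma). ENSMUST00000115567 had 3.79, 1.70 and 1.68 FPKM in RSD mice and 3.13, 0.849 and 0.728 FPKM in control mice (0.77, unadjusted p = 0.27), and ENSMUST00000152853 had 0.810 to 1.26 FPKM in RSD mice and 0.291 to 1.10 FPKM in control mice (0.97, unadjusted p = 0.11). ENSMUST00000097592 was even across the mice, at 0.892 to 0.917 FPKM in RSD mice and 0.868 to 1.15 FPKM in control mice.

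Nr3c2 on chromosome 8 encodes the mineralocorticoid receptor. Its mRNA sum was 9.52, 10.01 and 9.32 FPKM in RSD mice, against 6.19, 9.84 and 5.05 FPKM in control mice. All RSD mice lay close together, and control mouse 2 lay among them while control mice 1 and 3 were lower. The log2 fold change was 0.50 ± 0.25 (SE, 95% interval -0.12 to 1.12, unadjusted p = 0.095, adjusted p = 0.60, limma). With 1 mouse left out it ran from 0.30 without control mouse 3 (unadjusted p = 0.26) to 0.77 without control mouse 2 (unadjusted p = 0.0036, adjusted p = 0.57). All of this locus stood in the mRNA table.

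The mice differed in which Nr3c2 isoform carried the value. ENSMUST00000109912 (chr8:76902288-77245007) had 8.24, 8.98 and 7.72 FPKM in RSD mice, against 0.766, 6.84 and 1.08 FPKM in control mice, and made up 86.6%, 89.7% and 82.8% of the gene's sum in RSD mice and 12.4%, 69.5% and 21.4% in control mice. The groups did not overlap, and control mouse 2 again stood with the RSD mice. Its log2 fold change was 2.13 ± 0.79 (SE, unadjusted p = 0.036, adjusted p = 0.73, limma over 29471 mRNA transcripts), without control mouse 2 it was 3.05 with an adjusted p of 0.0478, and without any 1 of the other 5 mice its unadjusted p was over 0.05. ENSMUST00000109913 (chr8:76899772-77245012), whose span starts upstream of it, was listed at 1.06, 0.0125 and 1.24 FPKM in RSD mice and 4.22, 0.0266 and 3.27 FPKM in control mice (log2 fold change -1.13, unadjusted p = 0.52). Both span nearly the same stretch, and how reads were divided between them was not tested. ENSMUST00000128862, a short transcript at the start of the gene, had 0 to 0.482 FPKM in RSD mice and 0.203 to 2.52 FPKM in control mice and did not pass the filter.

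The balance of the receptors did not separate the groups. Nr3c1 stood to Nr3c2 at 0.949, 0.506 and 0.541 in RSD mice, against 1.41, 0.711 and 0.862 in control mice (ratio of mRNA sums). The mean log2 ratio was -0.65 ± 0.50 in RSD mice and -0.07 ± 0.51 in control mice (SD, n = 3 each), a difference of -0.58 with an exact two-sided permutation p of 0.30 (0.50 adjusted over the 2 ratios tested), where 0.1 is the smallest p that the 20 assignments of the mice allow. From locus sums the ratio was 1.56, 1.01 and 1.09 in RSD mice and 2.53, 0.900 and 1.87 in control mice (log2 difference -0.43, exact permutation p = 0.50). Over the 6 mice the genes whose mRNA sums ran most like Nr3c1 among 12276 were Xpnpep3, Maea and H2-Ke6 (Pearson's r of 0.987, 0.986 and 0.986 of log2 values), and those most like Nr3c2 were Zfp729a, Oprk1 and Gm14419 (0.990, 0.988 and 0.988). With 6 points shared by all genes, 55 and 63 genes had an r over 0.9 with Nr3c1 and with Nr3c2, so these names are a description of the same libraries.

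**Figure D2:**
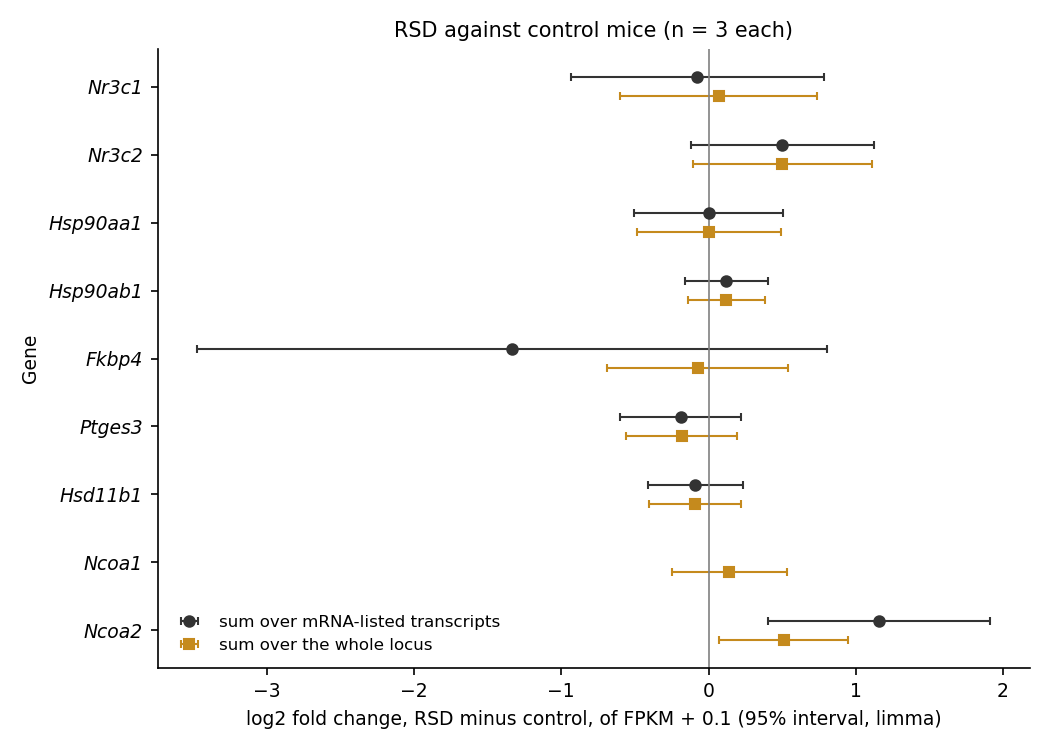
Log2 fold change of each member (horizontal axis, RSD minus control, of FPKM + 0.1) with its 95% interval from limma, n = 3 mice each, for the mRNA sum (black) and the locus sum (ochre). Ncoa2 is the 1 member whose intervals leave out 0 (0.40 to 1.91 and 0.07 to 0.95), and Fkbp4 is at -1.33 by mRNA sum and at -0.07 by locus sum.

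Hsp90 binds the unliganded receptor and keeps its hormone pocket open. Hsp90aa1 on chromosome 12, the stress-inducible form, had 155, 122 and 126 FPKM in RSD mice, against 175, 116 and 117 FPKM in control mice. Mouse 1 was the highest of each group and the others lay between 116 and 126 FPKM, with a log2 fold change of 0.002 ± 0.21 (SE, 95% interval -0.50 to 0.51, adjusted p = 0.998, limma). Hsp90ab1 on chromosome 17, the constitutive form and the most abundant member, had 235, 253 and 257 FPKM in RSD mice, against 252, 221 and 214 FPKM in control mice (log2 fold change 0.12 ± 0.11 SE, 95% interval -0.16 to 0.40, adjusted p = 0.73). With 1 mouse left out it ran from 0.07 without control mouse 3 (unadjusted p = 0.64) to 0.19 without control mouse 1 (unadjusted p = 0.0412, adjusted p = 0.24), a fit in which 16.6% of all genes were higher in RSD mice at an unadjusted p of at most 0.05. The ratio of Hsp90aa1 to Hsp90ab1 was 0.659, 0.481 and 0.492 in RSD mice and 0.696, 0.523 and 0.549 in control mice (log2 difference -0.12, exact permutation p = 0.50). Both genes have similar copies in the genome, and how reads that fit several copies were counted is not given in the sources used here.

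Most of both chaperones came from 1 isoform. ENSMUST00000094361 gave 82.2% to 93.1% of Hsp90aa1 and ENSMUST00000024739 gave 92.4% to 95.3% of Hsp90ab1 over the 6 mice. A short transcript within Hsp90aa1, ENSMUST00000145255 (chr12:110694175-110695672), had 0.628, 1.36 and 11.1 FPKM in RSD mice, against 14.9, 10.9 and 11.02 FPKM in control mice. RSD mice 1 and 2 were far below all others and RSD mouse 3 was among the control mice (log2 fold change -2.43 ± 0.99 SE, unadjusted p = 0.051, adjusted p = 0.73, limma). With 1 mouse left out it ran from -3.57 without RSD mouse 3 (unadjusted p = 0.00025, adjusted p = 0.14) to -1.60 without RSD mouse 1 (unadjusted p = 0.13). ENSMUST00000021698, ENSMUST00000129005, ENSMUST00000134967 and ENSMUST00000149189 of Hsp90aa1 and ENSMUST00000145205 and ENSMUST00000151306 of Hsp90ab1 overlapped between the groups, with log2 fold changes of 0.13 to 0.59 and unadjusted p values of 0.12 to 0.62.

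Fkbp4 on chromosome 6 encodes FKBP52. Its only mRNA transcript, ENSMUST00000032508 (chr6:128430103-128438677), was listed at 1.06, 10.1 and 8.77 FPKM in RSD mice, against 16.8, 9.32 and 10.5 FPKM in control mice. The value of RSD mouse 1 was far below the other 5. An assembled transcript with the same end and nearly the same start, MERGE.38483.2 (chr6:128430103-128438554), stood in the lncRNA table at 13.8, 6.17 and 4.78 FPKM in RSD mice and 6.16, 2.85 and 3.21 FPKM in control mice. It took 92.9%, 37.9% and 35.3% of the locus in RSD mice, against 26.8%, 23.4% and 23.5% in control mice. The mRNA value had a log2 fold change of -1.33 ± 0.87 (SE, unadjusted p = 0.18, adjusted p = 0.65, limma), and the sum of both, at 14.9, 16.3 and 13.6 FPKM in RSD mice and 23.0, 12.2 and 13.7 FPKM in control mice, one of -0.07 ± 0.25 (SE, adjusted p = 0.93). By the locus sum RSD mouse 1 lay between the others, and control mouse 1 was the highest.

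Fkbp5 on chromosome 17, which encodes FKBP51, had no row among the mRNA transcripts, and its 6 transcripts in the tables were listed as lncRNA. All lay on the strand of the gene. MERGE.19025.1 (chr17:28395501-28518509), an assembly that spans the whole RefSeq gene and runs past both ends, had 3.05, 0.502 and 5.45 FPKM in RSD mice, against 0.273, 1.17 and 1.53 FPKM in control mice. RSD mice 1 and 3 were the highest of the 6 and RSD mouse 2 lay among the control mice (log2 fold change 1.25 ± 0.94 SE, unadjusted p = 0.23, adjusted p = 0.94, limma over 23640 lncRNA transcripts).

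The other 5 were short catalogued transcripts inside the gene. NONMMUT028948.2 (chr17:28420075-28422717) had 1.17, 1.05 and 1.16 FPKM in RSD mice, against 0.539, 0.638 and 0.697 FPKM in control mice, with a log2 fold change of 0.76 ± 0.21 (SE, unadjusted p = 0.010, adjusted p = 0.90). NONMMUT028950.2 (chr17:28424760-28426428) had 1.02, 0.884 and 1.30 FPKM in RSD mice, against 0.564, 0.463 and 0.794 FPKM in control mice (log2 fold change 0.74 ± 0.28 SE, unadjusted p = 0.037, adjusted p = 0.93), and NONMMUT028951.2 (chr17:28435793-28437075) had 1.24, 0.828 and 1.02 FPKM in RSD mice, against 0.712, 0.393 and 0.768 FPKM in control mice (0.66 ± 0.31 SE, unadjusted p = 0.074, adjusted p = 0.93). In these 3 the lowest RSD mouse exceeded the highest control mouse. NONMMUT028949.2 and NONMMUT028953.2 overlapped between the groups, with log2 fold changes of 0.65 and 0.11. NONMMUT028948.2 kept an unadjusted p under 0.05 with each mouse left out in turn (0.014 to 0.043), while NONMMUT028950.2 went over it without control mouse 1 or 2 or RSD mouse 1 or 3 (0.068 to 0.13).

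Fkbp5 therefore had 6 of 6 positive log2 differences with a median of 0.70, against a median of -0.09 over all lncRNA transcripts tested. At an unadjusted p of at most 0.05 (limma), 2 of the 6 were higher in RSD mice, where 1.81% of lncRNA transcripts were. In 3 of the 6 all RSD mice lay above all control mice, as in 3.49% of lncRNA transcripts. An adjusted p under 0.05 (limma) was reached by 0 of the 6, where 0.102% did. The 6 share a gene and are not 6 independent measurements. Transcripts within other members had mixed signs. Both of 2 within Nr3c1 (median 0.30) and 1 of 2 within Ncoa1 had a positive log2 fold change. Of 7 on the strand of Nr3c2, 3 had a positive log2 fold change (median -0.09), and of 7 within Ncoa2 only 1 had (median -0.15). In these 4 genes 0 were at an unadjusted p of at most 0.05 by limma. All RSD mice lay above the control mice in 0 of them, and below in 1 transcript of Nr3c2 and 1 of Ncoa2. Whether Fkbp5 differed from these genes was not tested. A ratio of Fkbp5 to Fkbp4 mRNA could not be formed.

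**Figure D3:**
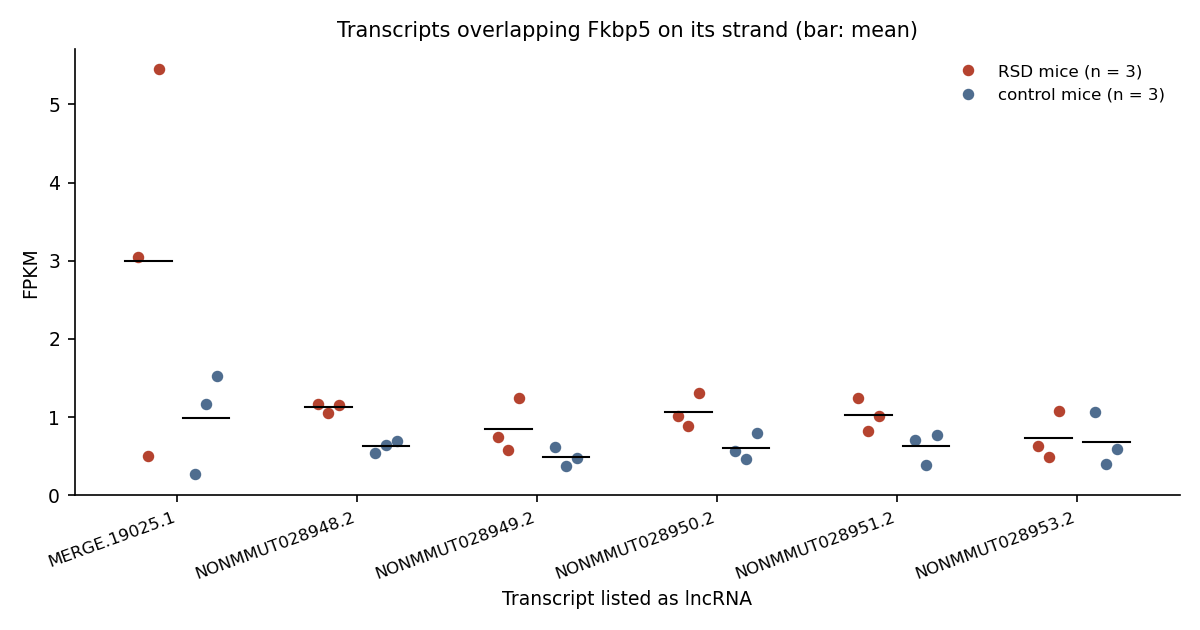
FPKM of the 6 transcripts that overlap Fkbp5 on its strand, with RSD mice in red left of control mice in blue and the mean as a bar, n = 3 each. The RSD mice lie above the control mice in NONMMUT028948.2, NONMMUT028950.2 and NONMMUT028951.2, and MERGE.19025.1 spreads from 0.502 to 5.45 FPKM among the RSD mice.

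The start sites of the immunophilin genes are shown because FKBP51 and FKBP52 do opposed work on the receptor, heat shock factor is a known regulator of chaperone genes, and the receptor one of Fkbp5. RefSeq promoter windows of build GRCm38.p6 were found for 6 of the 10 members (Nr3c2, Fkbp4, Fkbp5, Ptges3, Hsd11b1 and Ncoa1), each with 250 bases before the start and 50 after. The 250 bases before the start are printed in the direction of transcription, with capitals on matches of the heat shock element core (GAANNTTC or TTCNNGAA) and the CCAAT box (CCAAT), searched on both strands, which is why the box also appears as ATTGG.
Fkbp4, chr6:128438657-128438906, minus strand: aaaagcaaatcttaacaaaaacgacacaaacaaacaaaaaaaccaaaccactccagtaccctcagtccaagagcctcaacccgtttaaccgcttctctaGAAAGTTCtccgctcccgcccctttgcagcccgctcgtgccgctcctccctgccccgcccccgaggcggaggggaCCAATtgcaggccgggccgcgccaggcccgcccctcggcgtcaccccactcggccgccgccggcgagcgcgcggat
Fkbp5, chr17:28486150-28486399, minus strand: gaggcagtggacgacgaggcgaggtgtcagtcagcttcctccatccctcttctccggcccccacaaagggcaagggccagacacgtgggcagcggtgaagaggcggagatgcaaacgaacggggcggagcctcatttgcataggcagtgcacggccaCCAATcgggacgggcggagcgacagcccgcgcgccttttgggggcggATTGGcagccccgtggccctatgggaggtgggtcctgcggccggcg
The Fkbp4 window had a core, GAAAGTTC, that began at base -151 and 1 CCAAT box, and the Fkbp5 window had 2 CCAAT boxes and no core. The core was in 15.1% and the box in 37.4% of the 32851 promoter windows of the table. Among the members, Nr3c2 also had a core at base -151. The half-site of the glucocorticoid receptor, AGAACA, was in 19.0% of all windows and, among the members, in that of Ncoa1. The full glucocorticoid response element was found in no member window and in 3 of all windows. A match of letters does not show a binding site, and the lack of one says nothing of sites elsewhere in the gene.

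Ptges3 on chromosome 10 encodes p23, which binds Hsp90 and stabilises the mature receptor complex. It had 20.4, 24.2 and 23.7 FPKM in RSD mice, against 31.8, 22.0 and 24.9 FPKM in control mice. Control mouse 1 was the highest and the others lay together (log2 fold change -0.19 ± 0.17 SE, 95% interval -0.60 to 0.22, adjusted p = 0.72, limma). Nearly all of it was ENSMUST00000052798, and ENSMUST00000148943 stayed at 0.182 to 1.31 FPKM. NONMMUT008109.2 and NONMMUT008110.2, short transcripts of the locus in the lncRNA table, added 1.33 to 2.57 FPKM each, and the locus difference was -0.18.

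Hsd11b1 on chromosome 1 encodes the enzyme that regenerates active glucocorticoid from its inert 11-keto form inside the cell. Its mRNA sum was 4.44, 3.94 and 4.56 FPKM in RSD mice, against 4.94, 4.59 and 4.24 FPKM in control mice, and the groups overlapped. The log2 fold change was -0.09 ± 0.13 (SE, 95% interval -0.41 to 0.24, adjusted p = 0.83, limma). Its isoforms were less even. ENSMUST00000161737 (chr1:193221689-193264075), the one that starts farthest upstream, had listed values of 0, 0.914 and 0 FPKM in RSD mice, against 1.47, 0.977 and 2.95 FPKM in control mice (log2 fold change on the log2(FPKM + 0.1) scale -3.00 ± 1.03 SE, unadjusted p = 0.028, adjusted p = 0.71). The groups did not overlap, though RSD mouse 2 lay close to control mouse 2, and without control mouse 1 or 3 or RSD mouse 1 or 3 the unadjusted p was 0.065 to 0.088. ENSMUST00000160929 had 2.97, 0.117 and 2.93 FPKM in RSD mice and 0.430, 0.527 and 0.0129 FPKM in control mice (1.92, unadjusted p = 0.18), and ENSMUST00000016338 had 1.47 to 2.91 FPKM in RSD mice and 1.28 to 3.09 FPKM in control mice.

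The p160 coactivators bind a hormone-loaded receptor and recruit histone acetyltransferases. Ncoa1 on chromosome 12 encodes SRC-1. Its only mRNA transcript, ENSMUST00000085814 (chr12:4247363-4477182), was listed at 0.0208, 10.7 and 0.0176 FPKM in RSD mice, against 0.0548, 12.3 and 0 FPKM in control mice, so that 1 mouse of each group held nearly all of it and it did not pass the filter. The 5 assembled transcripts of the locus listed as lncRNA filled the rest. The locus sums were 21.7, 23.3 and 18.1 FPKM in RSD mice, against 16.0, 21.4 and 19.98 FPKM in control mice, close to each other, with a log2 fold change of 0.14 ± 0.16 (SE, 95% interval -0.25 to 0.53, adjusted p = 0.76, limma). Of these sums 99.9%, 54.0% and 99.9% in RSD mice and 99.7%, 42.4% and 100% in control mice were listed as lncRNA.

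**Figure D4:**
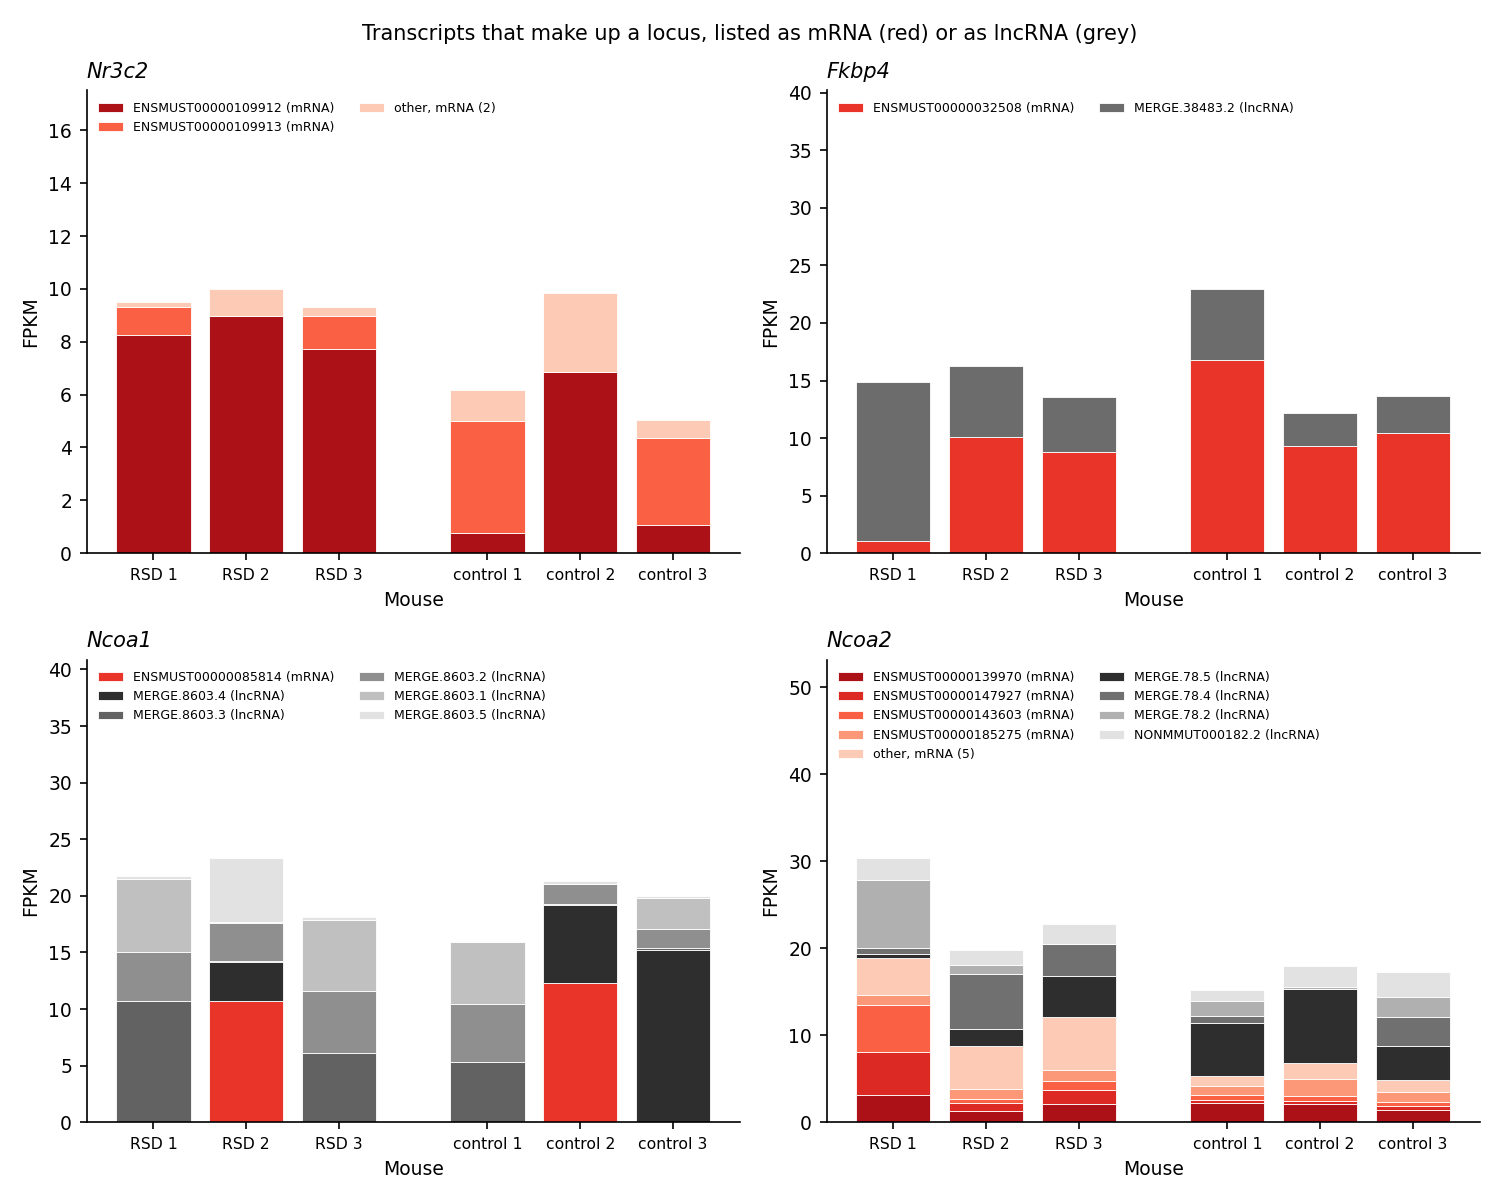
FPKM of each transcript stacked within the Nr3c2, Fkbp4, Ncoa1 and Ncoa2 loci, mouse by mouse, with RSD mice left of control mice, transcripts listed as mRNA in red and those listed as lncRNA in grey. The Ncoa1 and Fkbp4 totals range from 16.0 to 23.3 FPKM and from 12.2 to 23.0 FPKM, while their red parts range from 0 to 12.3 FPKM and from 1.06 to 16.8 FPKM, and the Nr3c2 isoform ENSMUST00000109912 is the main part in the RSD mice and in control mouse 2.

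Ncoa2 on chromosome 1 encodes SRC-2, also called GRIP1, which serves the glucocorticoid receptor both as a coactivator and as a corepressor. Its mRNA sum was 18.9, 8.74 and 12.1 FPKM in RSD mice, against 5.30, 6.83 and 4.82 FPKM in control mice. Every RSD mouse was above every control mouse, and RSD mouse 1 was the highest. The mean was 13.2 ± 5.2 FPKM in RSD mice and 5.65 ± 1.05 FPKM in control mice (SD, n = 3 each), 2.34-fold, with a log2 fold change of 1.16 ± 0.31 (SE, unadjusted p = 0.0096, adjusted p = 0.53, limma). With each mouse left out in turn the unadjusted p stayed at 0.0035 to 0.034. The locus sum was 30.4, 19.8 and 22.8 FPKM in RSD mice, against 15.3, 18.0 and 17.3 FPKM in control mice. The groups still did not overlap and the difference was smaller, at a log2 fold change of 0.51 ± 0.18 (SE, unadjusted p = 0.030, adjusted p = 0.50), and leaving out control mouse 1 or 3 or RSD mouse 1 or 3 took its unadjusted p over 0.05. Oligodendrocyte and mural marker sums separated the groups as well, and their part in this difference was not tested.

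The Ncoa2 sum was shared by 9 mRNA isoforms, none over 5.39 FPKM in any mouse. ENSMUST00000147927 (chr1:13164501-13374083) had 4.86, 0.968 and 1.59 FPKM in RSD mice, against 0.311, 0.368 and 0.457 FPKM in control mice, with no overlap (log2 fold change 2.13 ± 0.59 SE, unadjusted p = 0.012, adjusted p = 0.63, limma). It passed the filter only through its RSD mice, as all control values were under 0.5 FPKM. The filter thus favoured this direction, so its p and its lack of overlap are a description. With an RSD mouse left out it did not pass. ENSMUST00000143603 was high in RSD mouse 1, at 5.39, 0.458 and 0.967 FPKM in RSD mice and 0.538, 0.634 and 0.437 FPKM in control mice. The transcripts that span the whole gene, ENSMUST00000006037 and ENSMUST00000068304, were listed at 0 in all control mice and in RSD mouse 1, and at 1.35 and 1.65 FPKM in RSD mouse 2 and 1.47 and 2.70 FPKM in RSD mouse 3. ENSMUST00000124088, ENSMUST00000139970, ENSMUST00000146784 and ENSMUST00000185275 had log2 fold changes of -0.11 to 0.52 with overlapping groups, and ENSMUST00000133232 had 0.265 to 2.21 FPKM in RSD mice and 0.190 to 0.477 FPKM in control mice. In the lncRNA table MERGE.78.5 of the same locus ran the other way, at 0.511, 2.04 and 4.76 FPKM in RSD mice and 6.13, 8.55 and 3.998 FPKM in control mice (log2 fold change -1.71 ± 0.75 SE, unadjusted p = 0.061, adjusted p = 0.93), while MERGE.78.2, MERGE.78.4 and NONMMUT000182.2 overlapped between the groups.

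Over all members, 27 of the 33 mRNA transcripts passed the filter and 0 of the 27 reached an adjusted p under 0.05 (limma), where 0.163% of mRNA transcripts did. At an unadjusted p of at most 0.05 there were 3 of the 27, ENSMUST00000109912 of Nr3c2 and ENSMUST00000147927 of Ncoa2 with higher and ENSMUST00000161737 of Hsd11b1 with lower values in RSD mice, where 6.78% of all mRNA transcripts were past it in either direction. Of these, ENSMUST00000147927 passed the filter only through its RSD mice.

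The other genes of the pathway were taken from lists of known members, and 0 of their genes reached an adjusted p under 0.05 (limma). Among 30 other chaperones and cochaperones of the Hsp90 and Hsp70 machines, 19 had a positive log2 fold change, and the median was 0.12. At an unadjusted p of at most 0.05 (limma), 2 of the 30 were higher and 0 were lower in RSD mice. This was near the share of all genes tested, of which 6.21% were higher and 2.74% lower, so the genes named next are a description. The 2 higher genes were Fkbp8, a membrane-anchored immunophilin, with 27.5, 34.1 and 16.5 FPKM in RSD mice and 15.3, 8.91 and 10.4 FPKM in control mice (1.14, unadjusted p = 0.014, adjusted p = 0.53), and Dnajb1, an Hsp40 that heat shock induces, with 18.4, 20.6 and 20.4 FPKM in RSD mice and 16.4, 16.5 and 15.0 FPKM in control mice (0.31, unadjusted p = 0.026, adjusted p = 0.54). Next by p came Stub1, the ubiquitin ligase CHIP, with 19.5, 22.9 and 13.8 FPKM in RSD mice and 25.4, 0.170 and 0.203 FPKM in control mice (unadjusted p = 0.077), and the inducible Hsp70 gene Hspa1a, with 1.69, 1.09 and 0.420 FPKM in RSD mice and 0.695, 0.223 and 0.158 FPKM in control mice (unadjusted p = 0.079). Control mouse 1 was the highest of all mice for 16 of the 30. Without it 4 of 29 were higher and 1 was lower at that level, a share near the background of that fit, in which 16.6% of 12055 genes were higher and 3.04% lower. In that fit Stub1 reached an adjusted p of 0.0063, as 0.489% of genes reached one under 0.05. The locus sum of Stub1 differed less, with 65.6, 67.0 and 48.9 FPKM in RSD mice and 58.5, 24.6 and 26.3 FPKM in control mice, a log2 fold change of 0.83 over all mice, against 3.85 by mRNA sum.

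Of the other steroid receptors, the estrogen receptor gene Esr1 was the 1 of 3 past an unadjusted p of 0.05, at 0.913, 0.840 and 1.28 FPKM in RSD mice and 2.43, 1.79 and 1.69 FPKM in control mice (log2 fold change -0.90 ± 0.25 SE, unadjusted p = 0.011, adjusted p = 0.53, limma). Of all genes tested, 2.74% were lower in RSD mice at that level. Pgr, the progesterone receptor gene, overlapped between the groups. Among the enzymes and transporters of corticosteroids 7 of 12 genes were tested and 0 were past an unadjusted p of 0.05, with Srd5a1, Cyp11a1, Tspo and Abcb1b the nearest (unadjusted p of 0.12 to 0.35). Among 24 other coregulators, 3 were higher and 1 was lower in RSD mice at an unadjusted p of at most 0.05, with a median of 0.09. The shares of all genes tested were 6.21% higher and 2.74% lower. Ppargc1a, a coactivator of mitochondrial biogenesis, had 4.22, 4.47 and 4.40 FPKM in RSD mice and 0.822, 2.69 and 1.59 FPKM in control mice (1.45, unadjusted p = 0.012). Kat2a, an acetyltransferase (0.59, unadjusted p = 0.028), and Ncoa7, with 10.1, 7.21 and 10.3 FPKM in RSD mice and 6.86, 0.481 and 0.0601 FPKM in control mice (3.41, unadjusted p = 0.044), were also higher, and Hdac3, the deacetylase of the corepressor complex, had 21.0, 21.4 and 19.8 FPKM in RSD mice and 26.3, 26.0 and 24.1 FPKM in control mice (-0.29, unadjusted p = 0.022). By locus sums these counts were 1 higher and 1 lower, where 6.92% of all loci were higher. Without control mouse 1 the mRNA sums gave 5 higher and 2 lower of 24, against 16.6% and 3.04% of all genes, and Smarca4, a chromatin remodeler, reached an adjusted p of 0.017 (10.3, 11.8 and 10.9 FPKM in RSD mice, against 14.3, 2.99 and 3.31 FPKM in control mice).

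Genes that glucocorticoids induce, a list to which Fkbp5 also belongs, had 6 of 18 tested with higher and 0 with lower values in RSD mice at an unadjusted p of at most 0.05. Of all genes tested, 6.21% were higher and 2.74% lower at that level. The list had 16 positive log2 fold changes and a median of 0.93. Among the positive ones, Lcn2 had passed the filter only through its RSD mice. The smallest p values were those of Dusp1, a MAP kinase phosphatase, with 8.84, 9.75 and 10.8 FPKM in RSD mice and 6.19, 4.94 and 5.19 FPKM in control mice (0.84 ± 0.14 SE, unadjusted p = 0.0012, adjusted p = 0.34, limma), of Sult1a1, Cdkn1a and Ddit4 (0.86, 1.01 and 1.51, unadjusted p of 0.0017, 0.0089 and 0.026). By locus sums 9 of 18 were higher at that level, where 6.92% of all loci were, and by mRNA sums without control mouse 1 it was 11 of 18, where 16.6% of all genes were. These genes were in view when the list was made, so the count is a description.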

How the data were processed

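Ribosomal-RNA-depleted, strand-preserving RNA libraries of the PFC of 3 RSD and 3 control mice were analysed. The authors aligned reads, assembled transcripts with the Cufflinks suite and deposited FPKM per transcript and mouse for 32870 mRNA and 25974 lncRNA transcripts. The submitters' processing notes name Bowtie 0.12.2 and mm9, yet 99.88% of 31440 mRNA transcripts lie on the GRCm38.p6 gene of their symbol, so positions are taken as GRCm38. Versions of other tools were not given in the sources used here. FPKM carries no read counts, so depth is known only relative to control mouse 1. Fold changes and p-values of the authors stand beside the FPKM columns and were not used.

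Values were tested as log2(FPKM + 0.1), which understates changes of low transcripts, when at least 3 of 6 mice had at least 0.5 FPKM, with limma 3.58.1 in R 4.3.3 (trend over the mean, Benjamini-Hochberg adjustment), separately for mRNA transcripts, lncRNA transcripts, gene sums by symbol and locus sums. Ratios were tested by exact two-sided permutation. The procedure was tested on simulated data. The named genes are the members, their mRNA transcripts with a mean of at least 0.5 FPKM, up to 4 genes of each other list with the smallest p (1 of these is not reported here), and the 3 genes most like a receptor. ENSMUST00000006037, MERGE.38483.2 and the other assembled transcripts, Lcn2, and the list members named with control mouse 1 left out, were named after their values were seen. The members and lists were chosen with earlier results of these data known. Locus sums under each alternative, the lncRNA fit, the transcripts overlapping Fkbp5 and the lists without control mouse 1 were added after seeing the data. Same-numbered mice deviated together at correlations of 0.129, -0.0945 and 0.0961, so they were not treated as pairs. Mice lived 3 to a cage, and the intruder was put in with all 3 residents. Nothing states that the mice of a group came from separate cages or litters, so p-values measure the spread between these mice.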

Additional observations from a re-analysis of the deposited data

How the results depend on the processing

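Alternatives were pseudocounts of 0.01 and 1, no filter, a filter of 1 FPKM, quantile normalization, median scaling, no trend, a replicate block, locus sums and each mouse left out. No member reached an adjusted p under 0.05 as a gene sum in any of them, and 1 transcript did when a mouse was left out (0 to 1). At an unadjusted p of at most 0.05, the count of member genes was 1 to 2 with a mouse left out, that of member transcripts 1 to 4 and, with the filter of 1 FPKM, 1, that of member loci 0 to 2 and, under median scaling, quantile normalization and the replicate block, 0, and that of transcripts overlapping Fkbp5 1 to 3 and, with the filter of 1 FPKM, 1. The share of all features past a threshold moves with the fit too. Of all gene sums, 6.21% were higher in RSD mice at that unadjusted p (limma) in the main fit and 16.6% without control mouse 1. For the other alternatives that share was not taken, so these counts are a description and not a result about the members. Ncoa2 kept a positive sign in all settings, at 0.87 to 1.42 by mRNA sum and 0.34 to 0.65 by locus sum with a mouse left out. ENSMUST00000109912 reached an adjusted p under 0.05 (3.05, limma) without control mouse 2. ENSMUST00000147927 did not pass the filter of 1 FPKM, nor the main filter with an RSD mouse left out. Signs turned only where values lay near 0. With a mouse left out the log2 difference of the Hsp90aa1 to Hsp90ab1 ratio was -0.27 to 0.0074, Nr3c1 -0.35 to 0.15, its locus sum -0.11 to 0.33, Hsp90aa1 -0.11 to 0.20 by either sum, the Fkbp4 locus sum -0.25 to 0.20 and NONMMUT028953.2 -0.17 to 0.43. Nr3c1 was 0.069 by locus sum, and its locus sum -0.0014 under median scaling. Hsp90aa1 was -0.077 and -0.064 under median scaling and quantile normalization, and its locus sum -0.068 and -0.11. The cause of these changes was not tested. The replicate block also took ENSMUST00000161737 over an unadjusted p of 0.05 (0.055), which left 2 member transcripts past it, and changed no other call. The Fkbp5 to Fkbp4 ratio was not run because Fkbp5 has no mRNA row. FPKM without counts gives no counting error, and with 3 mice a group the intervals of the receptors and chaperones leave room for changes of the sizes printed.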
